A study of Homo sapiens with 5 samples.

Results

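Nuclear receptors were examined as a family in MHCC97H cells, a human hepatocellular carcinoma line. A list of 45 receptor genes was matched to the gene symbols that the platform annotation gives the array's probes. It found 40 receptors with 68 probes, of 28264 probes for 19090 named genes in all. No probe carried the symbols of the other 5 (NR1H2, NR1H4, NR1I2, NR2F2 and NR0B1), which were not analysed here. The cells stably carried empty vector (2 arrays), ACOT12 (2 arrays) or a mutant form of ACOT12 (1 array), after 1 week of puromycin selection. ACOT12 is a thioesterase that releases acetate from acetyl-CoA. All groups share the parental line and the drug selection, and the labels name neither the change in the mutant nor whether the replicates were separate cultures.

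Nuclear receptors are transcription factors that bind short DNA elements and are switched by small fat-soluble molecules such as retinoids, oxysterols, fatty acids, bile acids, steroid and thyroid hormones. Many of them work as pairs with a retinoid X receptor (RXR), others as pairs of the same protein or alone, and they recruit corepressors or coactivators that remove or add acetyl groups on histones. In liver cells they are known for control of bile acid, lipid, glucose and drug metabolism and for a link between metabolism and the circadian clock.

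RNA was amplified, labelled with Cy5 and hybridised to 5 one-colour arrays, whose median deposited intensities lay between 616 and 825. Levels below are normalised intensities in arbitrary units, after quantile normalisation of all probes on the 5 arrays. Brightness depends on the probe as well as on the RNA, so no order of receptors is read from it. The ACOT12 probe checked the labels of empty vector against either form of ACOT12. It read 62.5 and 36.2 units with empty vector, 4700 and 4759 with ACOT12 and 4225 with the mutant. Its log2 difference from empty vector was 6.61 ± 0.26 (limma's SE) with ACOT12 (limma adjusted p = 0.00356) and 6.44 ± 0.32 with the mutant (limma adjusted p = 0.00480). ACOT12 minus mutant was 0.16 ± 0.32 (limma adjusted p = 0.821), so the probe does not tell ACOT12 from the mutant. Of 10 hepatocellular markers 4 exceeded the 90th percentile of 360 probes for olfactory receptor genes in all 5 arrays, among them KRT18 (116217 to 150328 units) and AFP (3272 to 4000.0 units). ALB, the main plasma protein of hepatocytes, exceeded it in only 2 arrays. Of the other cell types' markers, 2 immune genes (CD68 and CD14) and 1 fibroblast gene (LUM) also exceeded it in all 5 arrays. Of the endothelial and erythroid markers 0 did so. Fibroblast markers summed to between 7129 and 9280 units on the empty vector and ACOT12 arrays and to 6060 on the mutant array, but without COL1A1 to between 4782 and 5439 and to 5021. Endothelial markers summed to between 4210 and 5012 units on those 4 arrays and to 3348 on the mutant array, and immune markers to between 11916 and 14058 and to 14931. Most of the immune sum came from CD68, which read 8151 to 11278 units over the arrays. CD14 read 2619 to 3443 units and the tested MS4A1 probe 370 to 857. PTPRC, CD3E and LYZ were too dim to be tested and read at most 88.3 units.

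The olfactory receptor probes served as a reference for signal that liver cells are not known to make. Their 95th percentile lay between 3015 and 4301 units and their median between 159 and 227. By this reference 6 receptors read above the 95th percentile in all 5 arrays: RXRA, PPARG, PPARA, NR1H3, NR2F6 and ESRRA. The same 6 did so in the values as deposited. With the 90th percentile 14 receptors passed, the added ones being RXRB, RARA, RARB, RARG, NR2C2, NR2F1, HNF4G and NR3C1. A receptor below the reference is not shown to be absent, since AFP itself passed the 95th percentile in only 2 arrays.

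**Figure D1:**
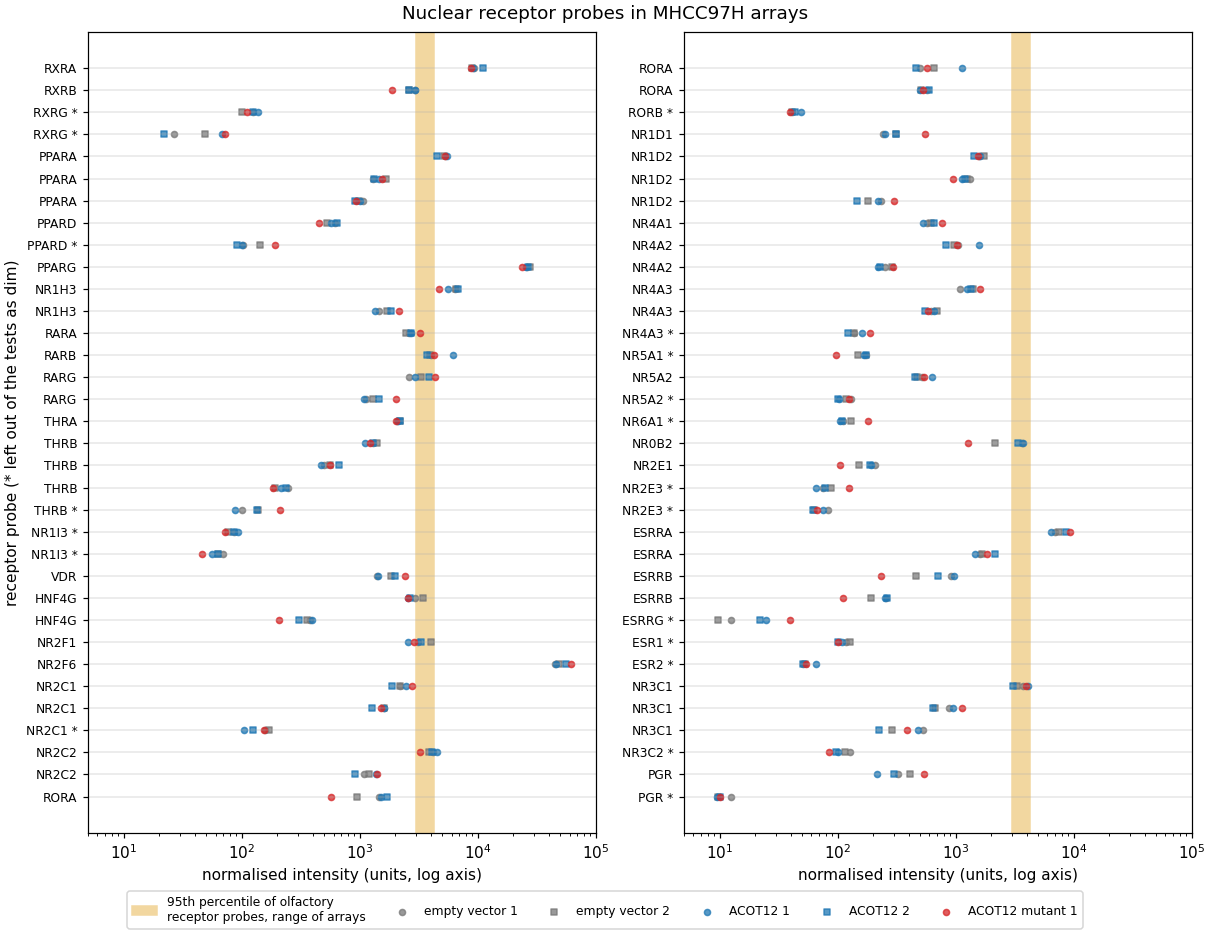
Normalised intensity (log axis, arbitrary units) of the 68 receptor probes on each of the 5 arrays, grouped by receptor class, with the range over arrays of the 95th percentile of olfactory receptor probes shaded. The brightest probe of each of RXRA, PPARG, PPARA, NR1H3, NR2F6 and ESRRA lies to the right of the shading on every array, and 19 probes marked with a star were too dim to be tested.

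Ranked among all probes of the array in the empty vector samples, 8 receptor probes lay above the 75th percentile, 24 between the 50th and the 75th, 18 between the 25th and the 50th and 18 under the 25th. A minimum brightness at the 25th percentile of the mean log2 level (7.34) kept 49 probes of 30 receptors for testing among 21198 probes. The other 19 probes left 10 receptors untested: the oestrogen receptors ESR1 and ESR2, ESRRG, the xenobiotic receptor CAR (NR1I3), the mineralocorticoid receptor NR3C2, steroidogenic factor 1 (NR5A1), NR6A1, RORB, RXRG and NR2E3. ESR1 read 101 to 126 units and ESR2 51.4 to 65.8 units over the 5 arrays. The 2 probes of NR1I3 read 72.8 to 93.6 and 46.3 to 69 units, and those of NR2E3, a photoreceptor factor, 65.8 to 124 and 62.2 to 82.6 units. Low readings came also from NR3C2 (85.2 to 127 units), NR5A1 (96.8 to 175), NR6A1 (105 to 179.7), RORB (39.3 to 48.5), ESRRG (9.65 to 39.3) and RXRG (100.3 to 137 and 22.2 to 72.8). No probe in this set exceeded the 90th percentile of the reference on any array.

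RXRs are the shared partners of many other receptors. RXRA read 9264 and 8940.4 units with empty vector, 9057 and 10983 with ACOT12 and 8813 with the mutant. ACOT12 and empty vector overlapped and the mutant reading was the lowest of the 5. The log2 difference from empty vector was 0.13 ± 0.16 with ACOT12 and -0.05 ± 0.20 with the mutant. RXRB read 2928 and 2604 units with empty vector, 2959 and 2622 with ACOT12 and 1862 with the mutant. Its mutant reading was the lowest of the 5, with a difference of -0.57 ± 0.19 from empty vector that did not pass (limma adjusted p = 0.178).

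Fatty acid sensing receptors of the PPAR group pair with RXR and control fat oxidation (PPARA) and fat storage (PPARG). PPARG read 26096 and 27979 units with empty vector, 25523 and 26796 with ACOT12 and 23695 with the mutant, and PPARA, by its brightest probe, 5328 and 5184 units with empty vector, 5455 and 4474 with ACOT12 and 5311 with the mutant. Both varied little across the arrays: the 95% interval of the difference between ACOT12 and empty vector was -0.40 to 0.30 for PPARG and -0.48 to 0.31 for that PPARA probe. The other PPARA probes read 1301 to 1685 and 915 to 1057 units, and the 3 differences between mutant and empty vector lay between -0.12 and 0.07. PPARD, a broadly used member, read 451 to 639 units by its tested probe.

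The liver X receptor NR1H3, a sensor of oxysterols that drives cholesterol efflux, had a pair of probes whose mutant readings lay on opposite sides of empty vector. The brighter read 6355 and 6539 units with empty vector, 5633 and 6742 with ACOT12 and 4733 with the mutant, and the dimmer 1455 and 1698 units with empty vector, 1338 and 1841 with ACOT12 and 2159.8 with the mutant. Against empty vector the mutant differed by -0.45 ± 0.19 by the first and by 0.46 ± 0.25 by the second. Neither passed (limma adjusted p = 0.267 and 0.356), so no direction is given for NR1H3.

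Retinoic acid receptors pair with RXR and respond to all-trans retinoic acid. RARG had 2 probes whose mutant readings were the highest of the 5: 1139 and 1292 (empty vector), 1086 and 1456 (ACOT12) and 2045 (mutant) for one and 2602 and 3299 (empty vector), 2936 and 3846 (ACOT12) and 4349 (mutant) for the other. The differences from empty vector, 0.75 ± 0.23 and 0.57 ± 0.25, did not pass (limma adjusted p = 0.157 and 0.268). RARA read 2483 to 3221 units over the arrays, with its highest value in the mutant. RARB, itself a target of retinoic acid, read 4014 and 3972 units with empty vector, 6182 and 3686 with ACOT12 and 4297 with the mutant. Only ACOT12 replicate 1 stood apart, and the difference of 0.26 ± 0.25 between ACOT12 and empty vector became -0.11 without that array.

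Thyroid hormone and vitamin D receptors also pair with RXR. THRA read 2018 to 2213 units and the 3 tested THRB probes 1112 to 1401, 474 to 667 and 184 to 246 units. The largest of their differences in size, over all 3 comparisons, was 0.30 (a THRB probe, ACOT12 minus mutant). VDR read 1388 and 1841 units with empty vector, 1426 and 1988 with ACOT12 and 2412 with the mutant. The mutant reading was the highest, but replicates 2 of empty vector and ACOT12 lay closer to it than replicates 1 did, and the difference from empty vector was 0.59 ± 0.28 (limma adjusted p = 0.295).

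Among orphan receptors of the NR2 group, NR2F6, a repressor related to the COUP factors, gave 44853 and 49281 units with empty vector, 45689.9 and 56136 with ACOT12 and 62175 with the mutant. The mutant array had the highest value, with a difference from empty vector of 0.40 ± 0.21 (limma adjusted p = 0.332). NR2F1, a COUP factor, read 2589 to 4027 units, NR2C1 1860.5 to 2789 and 1271 to 1616 by its tested probes, and NR2C2 3222 to 4474 and 905 to 1412. The NR2C2 probes disagreed in direction in all 3 comparisons.

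HNF4G is a close relative of the master hepatocyte factor HNF4A. Its brighter probe read 2935 and 3431 units with empty vector, 2553 and 2660.1 with ACOT12 and 2564 with the mutant, and its dimmer probe 382 and 361 units with empty vector, 394 and 308 with ACOT12 and 207 with the mutant. The dimmer probe was lowest in the mutant, with a difference from empty vector of -0.84 ± 0.21 (limma adjusted p = 0.117), while the brighter gave -0.31 ± 0.19.

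NR0B2 (SHP) has no DNA-binding domain and represses other receptors, in liver chiefly to shut down bile acid synthesis. It read 3622 and 2145 units with empty vector, 3696 and 3389 with ACOT12 and 1275 with the mutant. The mutant was lowest, and empty vector replicate 2 lay between it and the other 3 arrays. The mutant differed from empty vector by -1.13 ± 0.32 (limma adjusted p = 0.131) and from ACOT12, taken as ACOT12 minus mutant, by 1.47 ± 0.32 (limma adjusted p = 0.0600). CYP8B1, a bile acid synthesis enzyme that SHP is known to repress, read 1371 and 1138 units with empty vector, 1448 and 1224 with ACOT12 and 724 with the mutant, and its mutant minus empty vector difference of -0.79 ± 0.21 did not pass (limma adjusted p = 0.124).

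Oestrogen-related receptors act without a known hormone, and ESRRA is known for control of mitochondrial genes. By its brighter probe ESRRA read 6894 and 7449.5 units with empty vector, 6417 and 8691 with ACOT12 and 9394 with the mutant. ESRRB, better known from embryonic stem cells, gave 916 and 460.3 (empty vector), 971 and 704 (ACOT12) and 233 (mutant) by one probe and 257 and 193 (empty vector), 254 and 262 (ACOT12) and 112 (mutant) by the other. Both ESRRB probes were lowest in the mutant and next lowest in empty vector replicate 2. Their mutant minus empty vector differences were -1.48 ± 0.42 and -0.99 ± 0.22 (limma adjusted p = 0.132 and 0.0998). In the mutant and in empty vector replicate 2 the dimmer ESRRB probe lay below the median of the olfactory receptor probes there, so the size of its difference is not resolved. NR2E1 (TLX), a receptor of neural stem cells, read 205 and 153 units with empty vector, 193 and 188 with ACOT12 and 104 with the mutant. It lay below that median on every array, so neither its presence nor the size of its difference is resolved.

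Of the steroid hormone receptors, the glucocorticoid receptor NR3C1 read 3733 and 3337 units with empty vector, 4105 and 3074 with ACOT12 and 3954 with the mutant by its brightest probe. ACOT12 and empty vector overlapped, with a 95% interval of -0.45 to 0.47 for the difference. PGR, the progesterone receptor, had 1 tested probe, with 322 and 410.3 units with empty vector, 216 and 299.8 with ACOT12 and 539 with the mutant. Its other probe was too dim to be tested (9.50 to 12.4 units). The tested probe lay under the 90th percentile of the olfactory receptor probes on every array, and under their median on ACOT12 replicate 1. Both ACOT12 arrays lay below both empty vector arrays, and the mutant lay above all 4. The difference was -0.51 ± 0.22 for ACOT12 minus empty vector (limma adjusted p = 1.00) and -1.08 ± 0.27 for ACOT12 minus mutant (limma adjusted p = 0.0772).

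Immediate early receptors of the NR4A group are induced within minutes by many stimuli. NR4A1 read 531 to 767 units, the NR4A2 probes 824 to 1578 and 221 to 298, and the tested NR4A3 probes 1099 to 1606 and 553 to 691. NR4A2 differed between ACOT12 and empty vector by -0.25 ± 0.15 at its dimmer probe, which became 0.041 in the values as deposited. NR5A2 (LRH-1), which supports bile acid synthesis, read 449 to 629 units by its tested probe.

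REV-ERB and ROR receptors compete for the same elements in clock genes, where REV-ERBs repress and RORs activate. NR1D1 (REV-ERB alpha) read 243 and 314 units with empty vector, 253 and 310.4 with ACOT12 and 553 with the mutant. The empty vector and ACOT12 arrays overlapped fully and the mutant stood above them. Its difference from empty vector was 1.00 ± 0.24 (limma adjusted p = 0.103), and 0.70 in the values as deposited. On the empty vector and ACOT12 arrays NR1D1 lay close to the median of the olfactory receptor probes (195 to 227 units). It lay under their 90th percentile on every array, so the size of its difference is not resolved. NR1D1 and THRA overlap at their ends on opposite strands, and the probe's own strand and position were not used here. Of the 3 NR1D2 probes, the dimmest (146 to 300 units) read highest in the mutant (0.55 ± 0.29 against empty vector). The brighter ones read 1424 to 1732 and 950 to 1318 units and gave -0.10 ± 0.19 and -0.43 ± 0.18, the last being lowest in the mutant. RORA read 1455 and 956 units with empty vector, 1524 and 1717 with ACOT12 and 573 with the mutant by its brightest probe, lowest in the mutant, with a difference from empty vector of -1.04 ± 0.28 (limma adjusted p = 0.122). The other RORA probes gave 0.01 and -0.02, so a direction for RORA rests on 1 of 3 probes.

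The start regions of NR1D1, RORA and a pair of clock genes named further on, TEF and PER3, are shown as examples. NR1D1, TEF and PER3, and RORA at 1 of its 3 probes, had mutant readings outside those of the other arrays. So had CRY1, PER2, CLOCK, NPAS2 and some NR1D2 probes, whose regions are not shown. Of all probes, 43% read above both empty vector arrays in the mutant and 40.6% below both. That share concerns the empty vector arrays only, and the share outside the ACOT12 arrays as well was not computed. The regions are RefSeq windows of GRCh38.p14, from 250 bases before to 50 after the start of transcription. Capitals mark matches, on either strand, to the E-box CACGTG, its variant CACGTT, the D-box TTATGTAA or the receptor half-site AGGTCA. TEF and PER3 each have 2 windows, and the one with the lower coordinates is shown.
NR1D1 (chr17:40100540-40100839, minus strand): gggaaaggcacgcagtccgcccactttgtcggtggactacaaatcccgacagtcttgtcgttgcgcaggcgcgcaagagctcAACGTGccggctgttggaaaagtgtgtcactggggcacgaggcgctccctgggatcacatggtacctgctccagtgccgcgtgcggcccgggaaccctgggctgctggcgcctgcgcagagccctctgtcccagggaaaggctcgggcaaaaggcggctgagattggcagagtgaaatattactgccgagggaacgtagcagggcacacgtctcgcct
RORA (chr15:60627481-60627780, minus strand): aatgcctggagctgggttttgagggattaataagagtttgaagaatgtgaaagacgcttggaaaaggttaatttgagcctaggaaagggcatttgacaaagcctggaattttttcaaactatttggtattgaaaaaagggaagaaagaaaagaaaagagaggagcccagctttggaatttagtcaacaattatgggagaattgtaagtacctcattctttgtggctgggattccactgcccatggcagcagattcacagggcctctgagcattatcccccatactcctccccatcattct
TEF (chr22:41367205-41367504, plus strand): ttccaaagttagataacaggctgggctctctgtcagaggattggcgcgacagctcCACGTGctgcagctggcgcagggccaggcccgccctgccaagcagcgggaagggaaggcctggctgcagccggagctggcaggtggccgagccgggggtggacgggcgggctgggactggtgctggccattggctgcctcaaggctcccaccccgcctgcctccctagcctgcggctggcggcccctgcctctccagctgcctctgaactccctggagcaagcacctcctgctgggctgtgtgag
PER3 (chr1:7784041-7784340, plus strand): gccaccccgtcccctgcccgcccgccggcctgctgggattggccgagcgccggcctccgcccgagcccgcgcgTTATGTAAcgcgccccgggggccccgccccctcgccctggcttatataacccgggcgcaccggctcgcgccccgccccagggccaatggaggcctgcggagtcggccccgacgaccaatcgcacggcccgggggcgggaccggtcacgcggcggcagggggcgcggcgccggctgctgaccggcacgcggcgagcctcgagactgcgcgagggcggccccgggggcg
NR1D1 held CACGTT on the opposite strand, beginning at position -168 from the start of transcription. TEF held CACGTG at position -195 and PER3 the D-box at -177, and RORA held none of the 4 motifs. Of the second windows, which are not shown, that of TEF held CACGTG at -193 and that of PER3 none of the 4. Windows of PER2 and CRY1, also not shown, held CACGTT at -197 and, on the opposite strand, at -89. Of 35116 windows of this length, 7.26% held CACGTG, 5.34% CACGTT, 0.886% TTATGTAA and 13.8% AGGTCA. Among the 94 windows of 40 listed receptors, 9 held CACGTG, 3 CACGTT, 2 TTATGTAA and 16 AGGTCA. A match describes letters in the window and says nothing about binding.

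ACOT12 was first compared with empty vector. Of the receptors that stood above the olfactory reference, RXRA differed by 0.13, PPARG by -0.05 and NR2F6 by 0.11 log2 units. By their brightest probes PPARA differed by -0.09, NR1H3 by -0.06 and ESRRA by 0.06. Among the 49 tested receptor probes limma called 0, against 2 of 21198 probes over the whole array (0.00943%), and 0 had an unadjusted p under 0.05, where 0.778% of all probes read higher and 1.4% lower at that level. Higher readings came from 28 probes and lower from 21, a split that was 38 to 11 in the values as deposited, 22 to 27 after median centring and 30 to 19 after cyclic loess. The median difference was 0.02 for the receptor probes and -0.01 for all tested probes. Of the receptor probes 48 of 49 (98.0%) lay within 0.5 log2 units of empty vector, and of all probes 97.8%. The 95% intervals had a median width of 0.44 on either side, and 44 of 49 lay entirely within 1 log2 unit of 0. The groups did not overlap at 2 probes that read higher and 5 that read lower, where 11.6% and 16.8% of all probes did so.

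The differences ran from -0.51 (PGR) to 0.46 (RORA). RORA, by the probe above, gave 0.46 ± 0.23, HNF4G -0.28 ± 0.15 by its brighter probe, and NR2F1 -0.27 ± 0.20. NR0B2 gave 0.34 ± 0.26, ESRRB 0.21 ± 0.18 and 0.35 ± 0.34, and NR2C1 -0.18 ± 0.17 by the probe with the smaller p. Each had a limma adjusted p of 1.00. NR0B2 and the brighter ESRRB probe turned to -0.033 and -0.15 without empty vector replicate 2. Leaving out single arrays moved the difference between 0.15 and 0.76 for RORA, -0.76 and -0.28 for PGR, -0.40 and -0.17 for HNF4G, -0.46 and -0.084 for NR2F1, -0.35 and -0.012 for NR2C1 and 0.0014 and 0.41 for the dimmer ESRRB probe. Of 14 receptors with over 1 tested probe, the probes agreed in sign at 9.

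The mutant was then compared with empty vector, a comparison that rests on 1 mutant array, assumed to vary like the others. Limma called 0 of 49 receptor probes, against 10 of 21198 (0.0472%). At an unadjusted p under 0.05, 2 receptor probes read higher and 7 lower, or 4.08% and 14.3%, beside 9.1% and 11.3% of all probes. Higher readings came from 25 and lower from 24, a split that was 18 to 31 as deposited. The median difference was 0.01, and 0.02 for all probes. The mutant lay above both empty vector arrays at 21 receptor probes and below both at 22, where 43% and 40.6% of all probes did so.

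**Figure D2:**
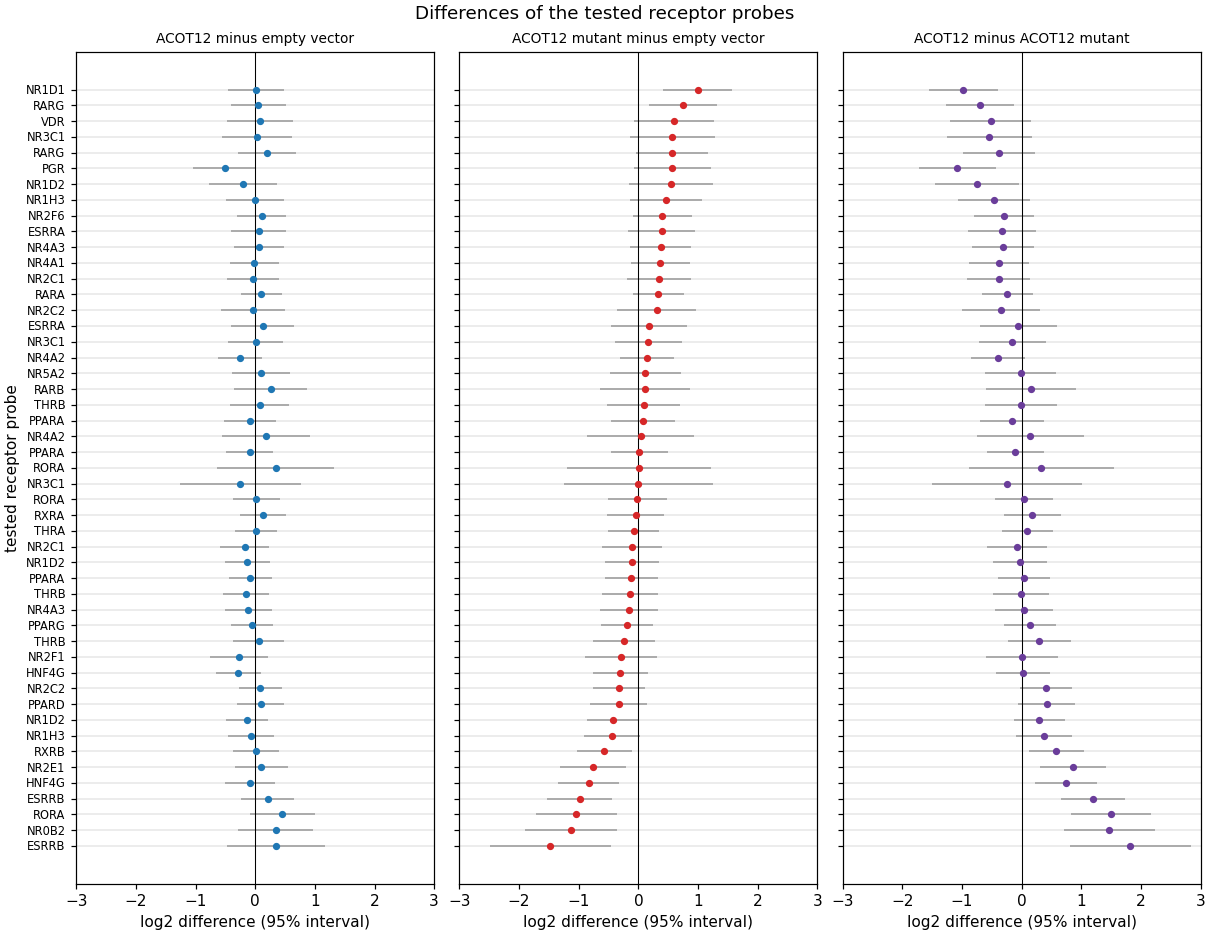
Log2 difference (point) and its 95% interval (bar) for the 49 tested receptor probes in each comparison, ordered by the mutant minus empty vector difference. In ACOT12 minus empty vector the points run from -0.51 to 0.46, and with the mutant they run from -1.48 (ESRRB) to 1.00 (NR1D1).

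The 10 receptor probes with the smallest p comprised 2 that read higher in the mutant, NR1D1 and RARG, and 8 that read lower, from ESRRB (2 probes), HNF4G, RORA, NR0B2, NR2E1, RXRB and NR1D2. NR2E1, below the median of the olfactory receptor probes on every array, gave -0.76 ± 0.23 (limma adjusted p = 0.143). At all 10 probes, the 8 lower and the 2 higher, empty vector replicate 2 lay nearer to the mutant than replicate 1 did. Over all tested probes replicate 2 also lay nearer, with a median absolute log2 difference from the mutant of 0.24, against 0.30 for replicate 1. Without empty vector replicate 1 the difference of the brighter ESRRB probe was -0.98, and without replicate 2 it was -1.94. The olfactory receptor probes had their lowest median in the mutant (159 units) and next lowest in empty vector replicate 2 (195), with 217 to 227 on the other 3 arrays. The part this plays in the receptor readings was not tested. Probes of the same receptor agreed in sign at 5 of 14 receptors.

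**Figure D3:**
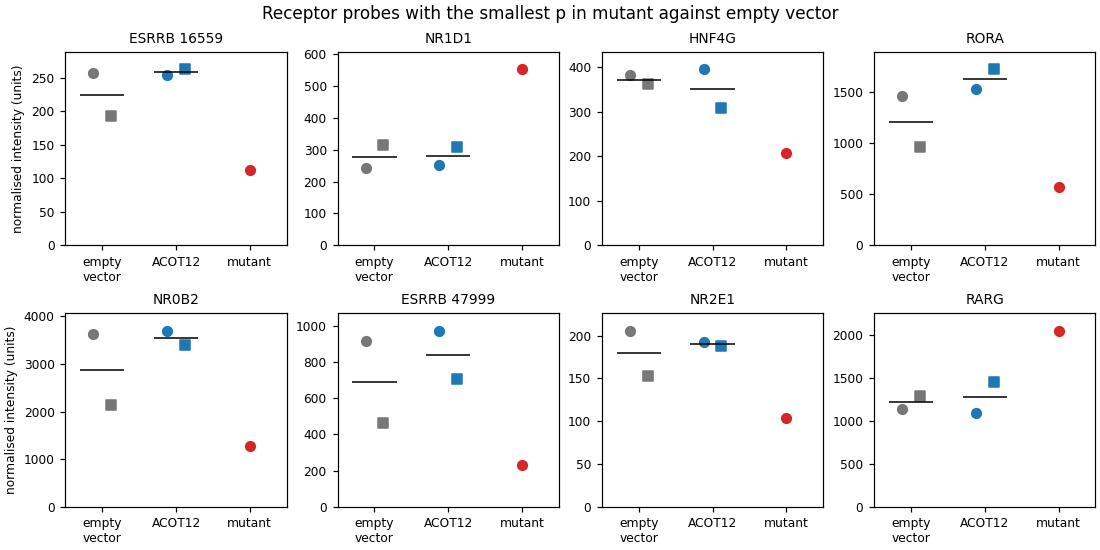
Normalised intensity on each array for the 8 receptor probes with the smallest p in mutant against empty vector, with circles for replicate 1, squares for replicate 2 and lines for the means of the empty vector and ACOT12 pairs. The mutant lies outside the other 4 arrays in every panel, and empty vector replicate 2 lies nearest to it in 6 of the 8, those of NR1D1, RORA, NR0B2, NR2E1 and both ESRRB probes, while ACOT12 replicate 2 does for HNF4G and RARG. Over all tested probes of the array empty vector replicate 2 also lay nearer to the mutant than replicate 1 did.

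ACOT12 and the mutant form were compared directly in the same model, with the mutant array shared with the comparison before. Limma called 0 of 49 receptor probes, where 551 of 21198 (2.6%) were called over the array, 504 higher with ACOT12 (2.38%) and 47 lower (0.222%). At an unadjusted p under 0.05, 7 receptor probes read higher and 4 lower with ACOT12, beside 13% and 10.1% of all probes. Both ACOT12 arrays lay above the mutant at 15 receptor probes and below it at 17, where 31.6% and 41.9% of all probes did so. The smallest limma adjusted p, 0.0502, came from the brightest RORA probe (1.50 ± 0.28) and the dimmer ESRRB probe (1.20 ± 0.22). The other RORA probes gave 0.33 and 0.04. The other ESRRB probe gave 1.82 ± 0.42 (limma adjusted p = 0.0674), and NR1D1 -0.98 ± 0.24 (limma adjusted p = 0.0753). NR2E1 gave 0.87 ± 0.23, the dimmer HNF4G probe 0.75 ± 0.21, RXRB 0.58 ± 0.19 and RARG -0.70 ± 0.23, with limma adjusted p between 0.0866 and 0.147. The brighter HNF4G probe gave 0.02 and the other RARG probe -0.37.

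These calls depended on the scaling. In the values as deposited limma called 6 receptor probes, all higher with ACOT12, where 9.68% of all probes were called. They were the brightest RORA probe, both ESRRB probes, the dimmer HNF4G probe, NR0B2 and NR2E1. In normalised values NR2E1 lay below the median of the olfactory receptor probes on every array. Cyclic loess called 4 (6.77% of all probes), an intensity trend 2 (3.77%) and median centring 12 (19.3%). For the mutant against empty vector median centring called 8, 3 higher and 5 lower, where it called 13.7% of all probes. For ACOT12 minus mutant 23 receptor probes read higher and 26 lower with quantile normalisation, and 33 and 16 as deposited. The median of all tested probes in that comparison was -0.06 with quantile normalisation, 0.14 as deposited and -0.27 after median centring. For mutant minus empty vector these medians were 0.02, -0.13 and 0.16. Among cell type markers in ACOT12 minus mutant, the fibroblast list had 1 called of 4 tested and the immune list 1 of 3. Of all probes 2.6% were called in that comparison. None was called of 6 endothelial, 3 erythroid and 10 hepatocellular genes tested. COL1A1, a fibroblast collagen, was higher with ACOT12 than with the mutant by 1.88 ± 0.28 (limma adjusted p = 0.0476), and MS4A1, a B cell gene, lower (-1.16 ± 0.18, limma adjusted p = 0.0476). The other tested fibroblast genes gave 0.84 (PDGFRA), -0.30 (PDGFRB) and 0.07 (LUM), and the other immune genes -0.23 (CD68) and 0.16 (CD14). Without ACOT12 replicate 1 or 2 neither COL1A1 (1.90 and 1.91) nor MS4A1 (-1.12 and -1.23) passed, though the differences were about as large, and the MS4A1 difference was -0.70 as deposited. Their part in the receptor readings was not tested.

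Cofactors and target genes were described by lists, chosen with earlier results of these data known. Of 16 lists, none had a member that limma called in either comparison with empty vector. Counting each gene once, 155 members were tested. For ACOT12 against empty vector 1 read higher and 2 lower at an unadjusted p under 0.05 (0.645% and 1.29%, beside 0.778% and 1.4% of all probes). For the mutant 11 read higher and 14 lower (7.10% and 9.03%, beside 9.1% and 11.3%). Against the mutant, ACOT12 had 3 called members (1.94%, beside 2.6% of all probes), so the share called among the members lay near that of the array. TRPV6, a calcium channel gene and VDR target, read 1924 and 1364 units with empty vector, 2051 and 1927 with ACOT12 and 756 with the mutant, a difference of 1.39 ± 0.25 for ACOT12 minus mutant (limma adjusted p = 0.0485). APOC3, an apolipoprotein gene that HNF4 factors drive, read 2102 and 1549 (empty vector), 2122 and 2741 (ACOT12) and 818 (mutant), a difference of 1.56 ± 0.26 (limma adjusted p = 0.0476). TEF, a clock output factor, was the third and lower with ACOT12, at -1.14 ± 0.18 (limma adjusted p = 0.0476). Its probe lay below the median of the olfactory receptor probes on every empty vector and ACOT12 array. The size of the TEF difference is therefore not resolved. Without ACOT12 replicate 1 or 2 the limma adjusted p of all 3 became 0.184 or 0.150, while the differences were 1.37 and 1.45 for TRPV6, 1.76 and 1.39 for APOC3 and -1.11 and -1.22 for TEF. As deposited TEF gave -0.48, with a limma adjusted p of 0.367, and it did not pass without empty vector replicate 1 either (0.0501).

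Corepressors and their complex gave 2 higher and 4 lower of 6 tested in the mutant against empty vector, with a median of -0.24 against 0.02 for all probes, and TBL1X, a subunit of the NCoR complex, read 7609 and 7210.3 units with empty vector, 6513 and 6106 with ACOT12 and 5094 with the mutant. Coactivators gave 6 higher and 9 lower of 15 (median -0.13), and steroid receptor chaperones 6 and 1 of 7 (median 0.29). With ACOT12 the medians of these lists were -0.11, -0.05 and 0.03, beside -0.01 for all probes.

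Targets of the LXRs gave 4 higher and 6 lower of 10 in the mutant. ABCG1, a cholesterol exporter, read 1088 and 1243 units with empty vector, 593 and 783 with ACOT12 and 463 with the mutant, and PLTP, a phospholipid transfer protein, 1927 and 1201 units with empty vector, 1604 and 1443 with ACOT12 and 538 with the mutant. Neither passed against empty vector (limma adjusted p = 0.0837 and 0.0893). ABCG1 was lower on both ACOT12 arrays too, with a difference of -0.77 ± 0.19 (limma adjusted p = 1.00).

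PXR and CAR targets gave 4 higher and 7 lower of 11 in the mutant against empty vector. CYP2B6, a drug-metabolising enzyme, read 7929.5 and 7490.4 units with empty vector, 7978 and 6989 with ACOT12 and 3844 with the mutant, and the mutant minus empty vector difference of -1.003 ± 0.19 did not pass (limma adjusted p = 0.0880). PPAR targets gave 6 higher and 7 lower of 13, and VNN1, a pantetheinase, read 618 and 495 units with empty vector, 592 and 620.2 with ACOT12 and 1057 with the mutant. RAR and RXR targets gave 7 higher and 2 lower of 9 in both comparisons with empty vector, with medians of 0.23 (ACOT12) and 0.28 (mutant). CRABP2, which carries retinoic acid to its receptors, read 24228 and 19138 units with empty vector, 31001 and 35676 with ACOT12 and 37070.1 with the mutant, with differences of 0.63 ± 0.18 and 0.78 ± 0.22 that did not pass (limma adjusted p = 1.00 and 0.131).

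Targets of FXR, LRH-1 and SHP, which serve bile acid synthesis and transport, gave 6 higher and 3 lower of 9 in the mutant against empty vector (median 0.21). VDR targets gave 1 higher and 4 lower of 5 (median -0.32), and CYP24A1, the enzyme that inactivates vitamin D, read 9116 and 6509 units with empty vector, 6664 and 6284 with ACOT12 and 4821 with the mutant. Targets of HNF4 and other hepatocyte factors gave 3 higher and 6 lower of 9 (median -0.06). Thyroid hormone receptor targets gave 3 and 2 of 5 (median 0.16), glucocorticoid receptor targets 5 and 6 of 11 (median -0.08), and oestrogen and ERR targets 6 and 4 of 10 (median 0.13). Immediate early genes, which include the NR4A receptors themselves, gave 11 and 3 of 14 (median 0.05). Genes that make, carry or degrade ligands gave 7 and 8 of 15 (median -0.09), and CH25H, which makes an oxysterol, read 301 and 299 units with empty vector, 261 and 235 with ACOT12 and 195 with the mutant. With ACOT12 the medians of these lists lay between -0.12 (thyroid hormone receptor targets) and 0.11 (FXR, LRH-1 and SHP targets).

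Clock genes that REV-ERBs and RORs act with gave 9 higher and 4 lower of 13 tested in the mutant against empty vector, with a median of 0.39 beside 0.02 for all probes. At an unadjusted p under 0.05, 5 of the 13 read higher and 0 lower (38.5% higher, where 9.1% of all probes did so and 11.3% read lower). No other list had as many such members, and the lists were chosen with earlier results of these data known. Over the members of all lists 7.10% read higher and 9.03% lower, so no enrichment is read from this list. With ACOT12 they gave 6 higher and 7 lower, with a median of -0.01. TEF read 178 and 162 units with empty vector, 162 and 173 with ACOT12 and 371 with the mutant, and the mutant differed from empty vector by 1.12 ± 0.18 (limma adjusted p = 0.0826). On the empty vector and ACOT12 arrays TEF lay below the median of the olfactory receptor probes. The size of its difference is therefore not resolved. CRY1, a clock repressor, read 422 and 424 units with empty vector, 335 and 420.2 with ACOT12 and 692 with the mutant. PER2 and PER3, repressors of the same loop, read 305 and 391 (empty vector), 353 and 332 (ACOT12) and 556 (mutant) and 289 and 319 (empty vector), 269 and 299 (ACOT12) and 475 (mutant). At each of these 4 genes the mutant lay above the other 4 arrays. The genes were named for their small p, and the mutant lay above both empty vector arrays at 43% of all probes. The share of all probes with the mutant above the ACOT12 arrays as well was not computed. Limma adjusted p against empty vector was 0.138 for CRY1, 0.158 for PER2 and 0.137 for PER3. In the values as deposited the differences were smaller: 0.86 for TEF, 0.41 for CRY1, 0.38 for PER2 and 0.31 for PER3.

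**Figure D4:**
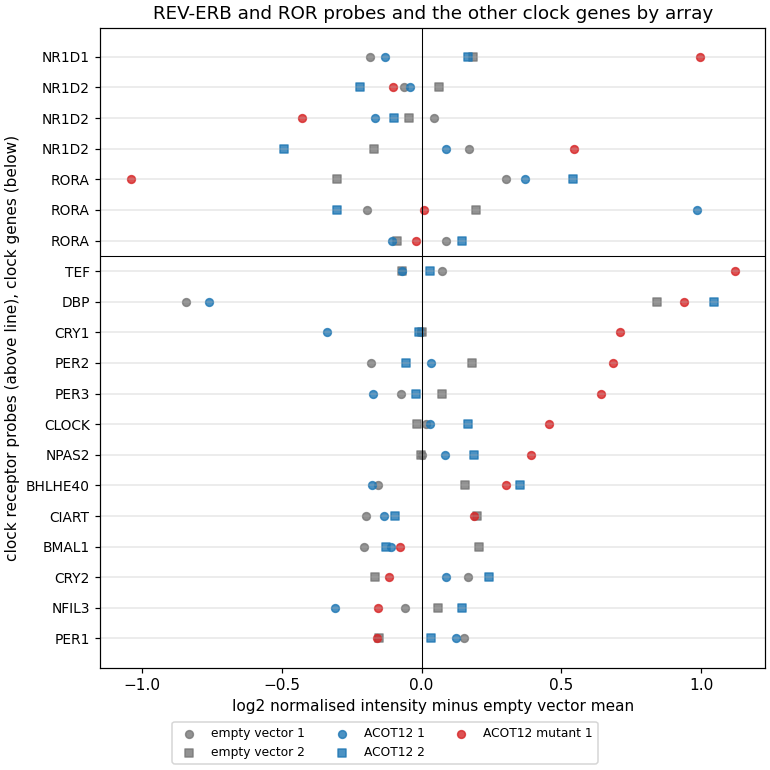
Log2 normalised intensity minus the empty vector mean, on each array, for the tested NR1D1, NR1D2 and RORA probes (above the line) and the 13 tested clock genes (under it). The mutant stands to the right of the other arrays for NR1D1, 1 NR1D2 probe, TEF, CRY1, PER2, PER3, CLOCK and NPAS2. It stands left of them for 1 RORA probe and another NR1D2 probe, while DBP spreads between replicates.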

How the data were processed

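Total RNA of 5 samples was extracted with Trizol, amplified and labelled with Cy5, per the labels' protocols. The deposited table holds probe intensities on a linear scale, read as such from the values. How the authors scanned, background-corrected or scaled them is not given in the sources used. Probes were named through the platform annotation (25893 with 1 symbol, 0 with several, 2371 with none).

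Values below 0 were set to 0, 1 was added, log2 taken and the arrays quantile-normalised, because dim probes shift between arrays more than bright ones. Probes under the 25th percentile of mean log2 were left out. One model of 3 group means was fitted to the remaining 21198 probes with limma 3.58.1 (lmFit, eBayes) in R 4.3.3, with 2 residual and 4.20 prior degrees of freedom. Tests were two-sided, with Benjamini-Hochberg adjustment over all tested probes and a threshold of 0.05. The fit was tested on simulated data. The labels do not say that replicates were separate cultures, so a p-value measures the spread between these arrays alone, and that spread may be technical. Replicate numbers were not taken as pairs, since only 2 pairs exist (correlation of deviations 0.19).

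Full statistics go to up to 10 receptor probes with the smallest p per comparison and to up to 4 members of each list. The receptors, lists and motifs were chosen with earlier results of these data known. Alternatives were 3 other scalings, other filters, an offset of 50, an intensity trend, 1 probe per gene, the replicate block, only the 4 arrays compared and leaving out each array. Promoter windows matched 40 of the 45 receptors.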

Additional observations from a re-analysis of the deposited data

How the results depend on the processing

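Of the receptor counts, that for ACOT12 against empty vector stayed at 0 under each alternative run. For the mutant against empty vector it became 8 after median centring, 4 with the replicate block (6.42% of all probes) and 0 to 1 when each array was left out. For ACOT12 against the mutant it became 6 as deposited, 12 after median centring, 4 after cyclic loess, 2 with an intensity trend, 9 with the replicate block (11.1%) and 0 to 4 when each array was left out (4 without either empty vector array, 0 without either ACOT12 array). Over all probes, the 2 calls of ACOT12 against empty vector became 0 as deposited, 80 after median centring, 1 without a filter, 0 with the filter at the 50th percentile, 1 with an offset of 50, 1 with a trend and 0 to 3 when each array was left out. The 10 calls of the mutant against empty vector became 6 as deposited, 2913 after median centring, 129 after cyclic loess, 50 without a filter, 2 with the stricter filter, 1361 with the replicate block and 0 to 296 when each array was left out. The 551 calls of ACOT12 against the mutant became 2053, 4095, 1436, 52, 252 and 2347 under the same settings and 0 to 978 when each array was left out. Above the 95th percentile of the reference lay 6 receptors, and 14 above the 90th. For ACOT12 minus empty vector NR4A2 turned from -0.25 to 0.041 as deposited, and leaving out single arrays moved NR0B2 between -0.033 and 0.73, ESRRB between -0.15 and 0.85 and RARB between -0.11 and 0.63. The causes were not tested. Fits without an empty vector or ACOT12 array keep 1 residual degree of freedom and hold the lone array to the spread of the other group. For the named receptor probes 325 alternative values kept direction and side of the threshold, 50 passed it and 4 turned. TRPV6, APOC3, TEF, COL1A1 and MS4A1 did not pass without a filter, TRPV6 not with the filter at the 50th percentile and TEF not with an offset of 50. Comparisons with the mutant rest on 1 array, and dim probes near the olfactory receptor reference do not resolve the size of a difference.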
